A study of Mus musculus with 7 samples.

Results

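Heat shock genes were followed in the dorsal skin of aged mice after a topical senolytic. The 10 genes, of 55450 in the count table, were taken by name as inducible and constitutive members of the heat shock system. They were chosen with earlier results of these data known. They were the HSP70 genes Hspa1a, Hspa1b and Hspa8, the HSP90 genes Hsp90aa1 and Hsp90ab1 and the HSP110 gene Hsph1. The HSP40 gene Dnajb1 and the small heat shock genes Hspb1, Hspb6 and Cryab made up the rest. All 7 animals were male C57BL/6 mice aged 24 months, with no transgene. Their dorsal skin was clipped, depilated, cleansed with ethanol and kept under a dressing for 5 days with DMSO, the solvent (4 mice, 480 to 483), or with 5 μM ABT-263, an inhibitor of Bcl-2 family proteins, in that solvent (3 mice, 476 to 478). Polyadenylated RNA of whole skin was sequenced, 1 library per mouse. Skin without depilation or dressing was not analysed here, so values are differences between the 2 treatments only.

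Heat shock proteins are chaperones. HSP70 holds exposed stretches of unfolded proteins in a cycle of ATP use that HSP40 (J-domain) partners start and nucleotide exchange factors such as HSP110 end, and HSP90 acts later on kinases, steroid receptors and other clients. The small heat shock proteins use no ATP and hold unfolding proteins until HSP70 takes them over. Under heat or other protein damage the factor HSF1 binds inverted repeats of the unit GAA in the promoters of the inducible genes. Cells also keep constitutive members at a steady level, and muscle holds much of the small proteins alphaB-crystallin (Cryab) and HSP20 (Hspb6).

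The promoters of the inducible HSP70 pair are shown because, of the neighbouring genes Hspa1a and Hspa1b, only Hspa1a was called below. The difference between the fold changes of these genes was not tested. The promoter of Hspb1 is shown because it carries more than 1 of the shorter elements. Sequences are from RefSeq (GRCm38.p6), 5′ to 3′ on the strand of the gene and end at or before the base preceding the start of transcription. Capitals mark a pair of neighbouring units, GAANNTTC or TTCNNGAA.
Hspa1a, chr17:34972157-34972406, minus strand: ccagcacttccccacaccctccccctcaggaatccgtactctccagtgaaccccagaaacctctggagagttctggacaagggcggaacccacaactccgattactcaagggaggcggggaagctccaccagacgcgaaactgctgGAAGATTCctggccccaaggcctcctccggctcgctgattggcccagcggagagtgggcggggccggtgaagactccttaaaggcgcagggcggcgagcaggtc
Hspa1b, chr17:34959239-34959488, minus strand: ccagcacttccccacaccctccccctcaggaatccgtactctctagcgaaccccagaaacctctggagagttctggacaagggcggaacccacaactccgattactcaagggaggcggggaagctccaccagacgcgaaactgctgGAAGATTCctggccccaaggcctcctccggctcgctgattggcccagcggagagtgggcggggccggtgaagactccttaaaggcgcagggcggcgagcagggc
Hspb1, chr5:135887782-135887849, plus strand: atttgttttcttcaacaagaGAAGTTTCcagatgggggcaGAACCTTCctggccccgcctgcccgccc

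The upstream windows of Hspa1a and Hspa1b were identical at 247 of 250 bases (98.8%), and the differing bases lay 207, 204 and 2 bases before the start. The element of both genes began 104 bases before the start, and those of Hspb1 began 117 and 97 bases before it. RefSeq promoter entries were found for 6 of the 10 genes, and Hspa8, Hsp90aa1, Hsp90ab1 and Cryab were not matched. Both strands of the 250 bases before each start were searched. A stricter motif of 3 neighbouring units (GAANNTTCNNGAA or TTCNNGAANNTTC), which includes the shorter one, was in none of the 6 genes and in 0.466% of all 32851 promoters. The pair of units was in 5 of the 6, all but Dnajb1, and in 12.8% of all promoters or 14.5% of the 27025 genes with an entry. A gene was counted if any of its starts had the pair, and Hspb6 had it before only 1 of its 2 starts. These matches describe letters in a window and are not binding sites.

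Libraries held 20344364 to 26824123 counted read pairs after DMSO and 27325963 to 43562330 after ABT-263, so depth was higher in every ABT-263 library; the calls of the 10 genes were the same with all libraries thinned to the smallest. Values are CPM, a gene's counts in each 1000000 counts of the TMM-scaled library. The label skin was checked with 10 keratinocyte markers, of which none was at 0. Their summed level was 30474.4 to 75015.5 CPM after DMSO and 20979.6 to 63841.9 CPM after ABT-263, and 1 of the 10 fell and none rose. Skeletal muscle was also present: its 12 markers summed to 45033.9 to 89849.9 CPM after DMSO and 33006.3 to 44784.7 CPM after ABT-263, 5 of them fell, none rose and none was at 0. Markers that rose were 6 of 7 for macrophages, 5 of 5 for endothelial cells, 3 of 7 for fibroblasts and 3 of 6 tested for neutrophils, of whose markers Ly6g was at 0 in some libraries. By the same test, given below, 12.4% of all genes tested rose and 11.7% fell. In whole skin, fewer cells of a type and less RNA per cell cannot be told apart.

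All 10 genes passed the filter on low counts. After ABT-263, 3 of them fell (Hspa1a, Hsp90aa1 and Hspb1), none rose and 7 were not called, by edgeR's quasi-likelihood test at an adjusted p of 0.05. Of all 17959 genes tested, 11.7% were called lower and 12.4% higher. At an unadjusted p of 0.05 by edgeR, 4 of the 10 genes were lower (19.5% of all genes) and 1 was higher (20.6%). DESeq2 called 4 lower (12.8% of the 21253 genes it tested) and none higher (14%). The log2 fold change was negative in 8 of the 10, with a median of -0.25 beside 0.0022 over all genes tested. The groups did not overlap, with every ABT-263 mouse lower, for 4 of the 10 genes (18.4% of all genes) and, with every ABT-263 mouse higher, for 1 (18.7%; 37.1% in either direction).

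**Figure D1:**
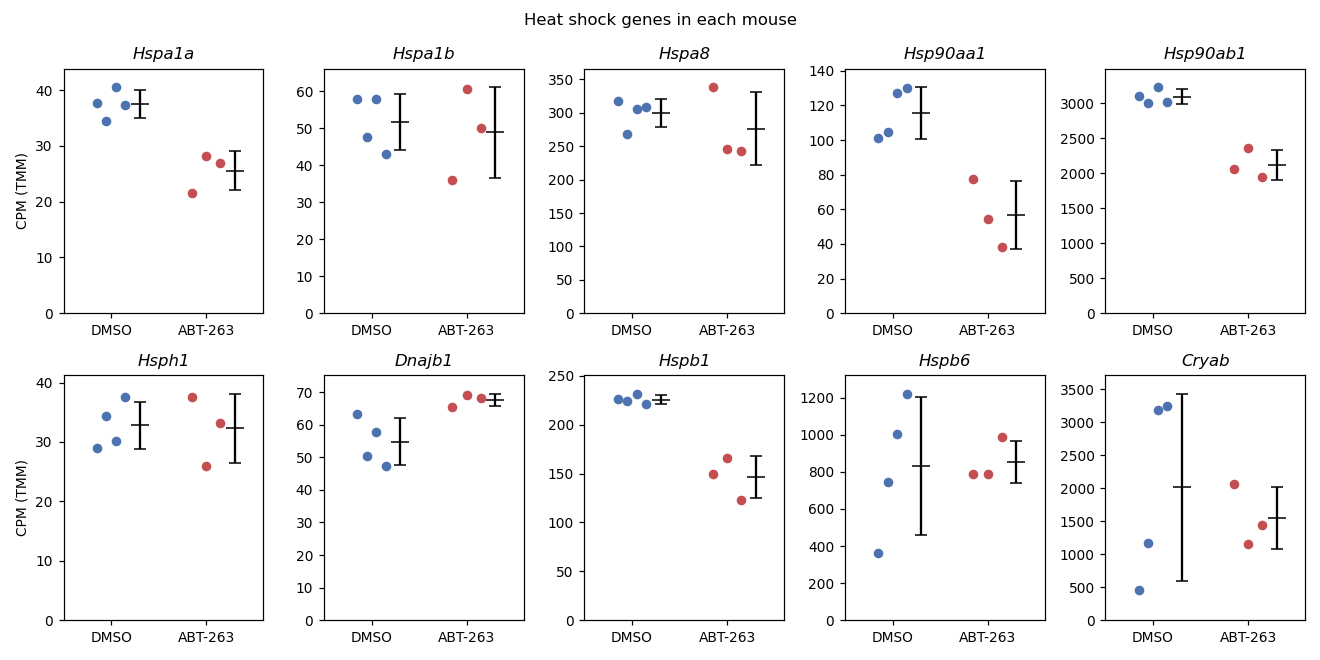
Level of each heat shock gene in each mouse (y axis, TMM-scaled CPM, from 0; a scale of its own per panel) after DMSO (4 mice, blue) or ABT-263 (3 mice, red), with bars for the mean ± SD. Hspa1a, Hsp90aa1, Hsp90ab1 and Hspb1 lay lower in every ABT-263 mouse and Dnajb1 higher, whereas Hspb6 and Cryab ranged widely among the DMSO mice.

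Of the inducible HSP70 genes, Hspa1a fell and Hspa1b was not called. Both are genes of a single exon on chromosome 17 (GRCm38), Hspa1a at 34969190 to 34972156 and Hspa1b at 34956436 to 34959238, on the minus strand, and they encode near-identical stress-inducible HSP70. Hspa1a was at 37.7, 34.5, 40.6 and 37.3 CPM in DMSO mice 480 to 483 and at 21.6, 28.1 and 27.0 CPM in ABT-263 mice 476 to 478. Every ABT-263 mouse was thus below every DMSO mouse, and the DMSO mice lay close together. The DMSO mean was 37.5 ± 2.51 CPM (SD, n = 4) and the ABT-263 mean 25.6 ± 3.45 CPM (SD, n = 3). This fall of 31.8% was called, at a log2 fold change of -0.55 (SE 0.13, edgeR adjusted p = 0.0243). Hspa1b was at 58.1, 47.8, 58.0 and 43.1 CPM after DMSO and at 36.1, 60.7 and 50.1 CPM after ABT-263. These groups overlapped, since ABT-263 mouse 476 was the lowest of all and mouse 477 the highest, and the log2 fold change was -0.08 (SE 0.20, edgeR adjusted p = 0.794).

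The reads of the pair cannot be split with certainty. Of the windows of 100 bases along the Hspa1a transcript, 47.1% were identical to a stretch of Hspa1b, and 49.9% of those of Hspa1b to Hspa1a. The authors counted uniquely aligned pairs, so pairs wholly within shared sequence were not counted. How much of each gene was measured is not known from these windows. In addition 19% of the exon bases of Hspa1a lie opposite the gene Gm20481 on the other strand. Added together, the pair was at 95.8, 82.2, 98.6 and 80.4 CPM after DMSO and at 57.8, 88.7 and 77.1 CPM after ABT-263. These sums overlapped, and with summed counts the pair was not called (log2 fold change -0.26, SE 0.17, edgeR adjusted p = 0.287). The share of Hspa1a in the pair was 39.4%, 41.9%, 41.2% and 46.4% after DMSO and 37.4%, 31.6% and 35.0% after ABT-263. It was lower in every ABT-263 mouse; since both genes were chosen with results known, no test was made of this share.

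Hspa8, Hsph1 and Dnajb1, the other HSP70, HSP110 and HSP40 genes among the 10, were not called. Hspa8 (chromosome 9, 40800984 to 40810087, plus strand) encodes the constitutive HSC70 that folds new proteins and uncoats clathrin vesicles. It was at 317.0, 268.9, 305.6 and 307.9 CPM after DMSO and at 339.0, 246.3 and 243.0 CPM after ABT-263. One ABT-263 mouse was above and the other two were below all DMSO mice, and the log2 fold change was -0.12 (SE 0.17, edgeR adjusted p = 0.626). Hsph1 (chromosome 5, 149614287 to 149636376, minus strand), the HSP110 exchange factor, was at 29.0, 34.4, 30.1 and 37.6 CPM after DMSO and at 37.6, 26 and 33.2 CPM after ABT-263, with overlapping groups (log2 fold change -0.02, SE 0.16, edgeR adjusted p = 0.932). Dnajb1 (chromosome 8, 83608193 to 83612653, plus strand), the HSP40 partner of inducible HSP70, was at 63.3, 50.5, 57.9 and 47.4 CPM after DMSO and at 65.6, 69.2 and 68.3 CPM after ABT-263. Every ABT-263 mouse was above every DMSO mouse for Dnajb1, the opposite side from Hspa1a. The log2 fold change of Dnajb1 was 0.31 (SE 0.13), with an unadjusted p of 0.0467 and an adjusted p of 0.119 by edgeR, and it passed the threshold under none of the alternatives tried.

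The HSP90 genes lay lower in every ABT-263 mouse, and 1 of them was called. Hsp90aa1 (chromosome 12, 110690605 to 110702728, minus strand), the stress-inducible HSP90 alpha, was at 101.3, 104.6, 127.1 and 130.3 CPM after DMSO and at 77.5, 54.5 and 38 CPM after ABT-263. The DMSO mean was 115.8 ± 15 CPM (SD, n = 4) and the ABT-263 mean 56.7 ± 19.9 CPM (SD, n = 3). Among the 10 genes this fall, of 51.1%, was the largest (log2 fold change -1.03, SE 0.24, edgeR adjusted p = 0.0213). Hsp90ab1 (chromosome 17, 45567775 to 45573271, minus strand), the constitutive HSP90 beta, was at 3113.2, 3006.2, 3240.0 and 3024.4 CPM after DMSO and at 2057.6, 2359.1 and 1945.2 CPM after ABT-263. The DMSO mice were tight (coefficient of variation 3.45%) and every ABT-263 mouse was below them. The log2 fold change of Hsp90ab1 was -0.55 (SE 0.19), which edgeR did not call (adjusted p = 0.0695), while the call was made by DESeq2's Wald test (adjusted p = 0.0012) and by edgeR with trends in transcript length and GC content removed (adjusted p = 0.0309). Over all alternatives its adjusted p lay between 0.0012 and 0.20.

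Among the small heat shock genes, Hspb1 fell, and Hspb6 and Cryab were not called and varied widely between mice. Hspb1 (chromosome 5, 135887919 to 135889563, plus strand) encodes HSP27, called HSP25 in the mouse, which is held in keratinocytes and muscle and binds actin. It was at 226.2, 223.9, 231.9 and 221.1 CPM after DMSO and at 149.5, 166.1 and 123.3 CPM after ABT-263. The DMSO mice differed by little (coefficient of variation 2.04%), and all ABT-263 mice were below them. The DMSO mean was 225.8 ± 4.60 CPM (SD, n = 4) and the ABT-263 mean 146.3 ± 21.6 CPM (SD, n = 3). The fall of 35.2% was called (log2 fold change -0.63, SE 0.14, edgeR adjusted p = 0.0188).

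Hspb6 (chromosome 7, 30552178 to 30555443, plus strand) was at 359.7, 744.6, 1003.0 and 1222.3 CPM after DMSO and at 789.9, 786.5 and 985.8 CPM after ABT-263. Cryab (chromosome 9, 50751325 to 50756636, plus strand) was at 457.3, 1173.2, 3185.7 and 3243.0 CPM after DMSO and at 2066.9, 1152.4 and 1436.9 CPM after ABT-263. For both genes DMSO mouse 480 was the lowest and mouse 483 the highest of all 7, and the ABT-263 mice lay between them. The highest DMSO value was 3.40 times the lowest for Hspb6 and 7.09 times for Cryab, with coefficients of variation of 44.5% and 70.3%. The log2 fold change was 0.04 for Hspb6 (SE 0.37, edgeR adjusted p = 0.952) and -0.38 for Cryab (SE 0.63, edgeR adjusted p = 0.689). These standard errors were more than 2 times those of Hspa1a and Hspb1. Of the exon bases of Cryab, 17.0% lie opposite Hspb2, which is transcribed from the other strand, and reads were counted by strand.

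The summed skeletal muscle markers were 45033.9, 73680.0, 66638.8 and 89849.9 CPM in DMSO mice 480 to 483 and 41421.3, 33006.3 and 44784.7 CPM in ABT-263 mice 476 to 478. The muscle sum was thus lower in every ABT-263 mouse, but mouse 478 (44784.7 CPM) lay just below DMSO mouse 480 (45033.9 CPM). Hspa1a, Hsp90aa1, Hsp90ab1 and Hspb1 were also lower in every ABT-263 mouse, while Hspb6 and Cryab were not. Summed smooth muscle markers, which could also hold Hspb6 and Cryab, were 3947.8 to 7528.4 CPM after DMSO and 3805.6 to 6731.4 CPM after ABT-263, with 1 of 8 lower. The most abundant of these, Des and Synpo2, are also made in skeletal muscle, so the sum does not stand for smooth muscle alone. Slow muscle fibre markers summed to 94.6 to 219.6 CPM and 38.8 to 99.6 CPM, with 1 of 6 lower. The part of these tissues in the heat shock values was not tested.

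Leaving out 1 mouse at a time changed the calls. Hspa1a, Hsp90aa1 and Hspb1 all stayed called without DMSO mouse 480 or 481, and none of them did without DMSO mouse 482 (edgeR adjusted p of 0.0703, 0.0588 and 0.0572) or without ABT-263 mouse 478 (0.0631, 0.0525 and 0.0605). Hspb1 alone was called without DMSO mouse 483 (Hspa1a 0.0591, Hsp90aa1 0.0559), Hsp90aa1 alone without ABT-263 mouse 476 (Hspa1a 0.0731, Hspb1 0.0525), and Hspa1a and Hspb1 without mouse 477 (Hsp90aa1 0.0585). The share of all genes called lower was 11.7% with every mouse and 4.17% to 11.9% with 1 left out. The log2 fold changes of these genes stayed negative, at -0.60 to -0.44 for Hspa1a, -1.32 to -0.81 for Hsp90aa1 and -0.70 to -0.51 for Hspb1.

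**Figure D2:**
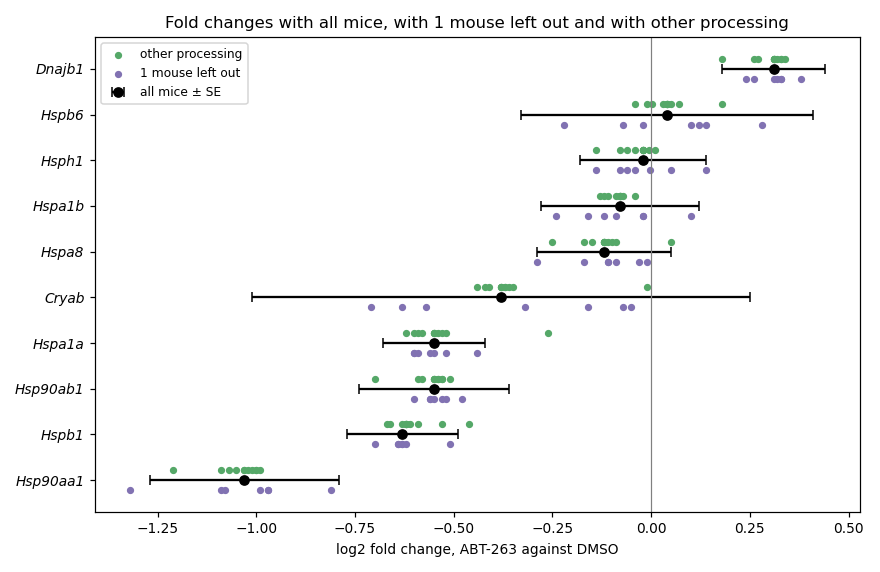
Log2 fold change of each heat shock gene, ABT-263 against DMSO (x axis), with all mice (black, bar ± SE), with 1 mouse left out (purple) and with other processing (green, including the summed HSP70 pair in the row of Hspa1a and the summed copies in those of Hspa8, Hsp90aa1 and Hspb1). Hsp90aa1, Hspb1, Hsp90ab1 and Hspa1a stayed below 0 and Dnajb1 above 0 in all of these, as did Cryab below 0 with a wide spread, whereas Hspb6, Hsph1, Hspa1b and Hspa8 crossed 0.

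The inducible HSP70 pair was also set against the small muscle heat shock genes in each mouse. Hspb6 and Cryab together were at 817.0, 1917.7, 4188.7 and 4465.3 CPM after DMSO and at 2856.8, 1938.9 and 2422.8 CPM after ABT-263, against the sums of the HSP70 pair given above. The log2 ratio of the HSP70 pair to the small genes was -3.09, -4.54, -5.41 and -5.80 after DMSO and -5.63, -4.45 and -4.97 after ABT-263. Its group means were -4.71 ± 1.20 (SD, n = 4) and -5.02 ± 0.59 (SD, n = 3), and the ranges overlapped. The difference of -0.31 was smaller than the spread between DMSO mice and turned to 0.23 without DMSO mouse 480, where the small genes were lowest. In proportion to their level, the small genes ranged more widely among the DMSO mice (817.0 to 4465.3 CPM) than the HSP70 pair (80.4 to 98.6 CPM). Among the ABT-263 mice these ranges were similar in proportion (1938.9 to 2856.8 CPM and 57.8 to 88.7 CPM).

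**Figure D3:**
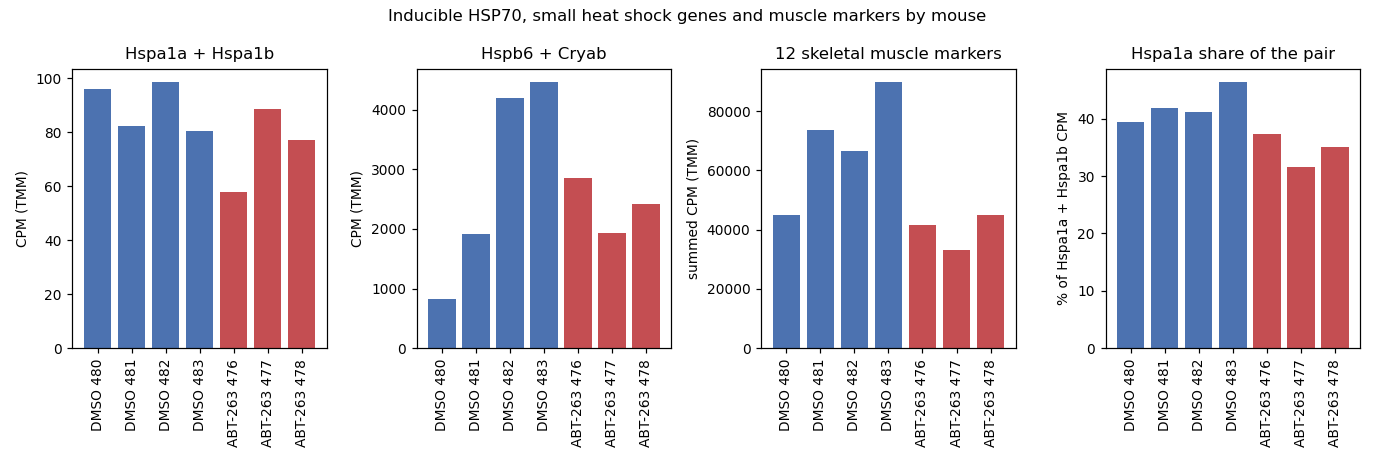
Values in each mouse (DMSO 480 to 483, blue; ABT-263 476 to 478, red; y axes from 0): summed CPM of Hspa1a and Hspa1b, of Hspb6 and Cryab and of 12 skeletal muscle markers, and the percent of the HSP70 pair that is Hspa1a. The muscle markers, by a narrow gap, and the share of Hspa1a were lower in every ABT-263 mouse, and the other sums overlapped between groups.

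To compare levels between genes, CPM was divided by exon length in kilobases. After DMSO the mean levels per kilobase ran from Cryab (1362.3 CPM per kilobase), Hsp90ab1 (1032.3), Hspb6 (362.1), Hspb1 (219.0), Hspa8 (69.7) and Hsp90aa1 (29.5) to Hspa1b (18.5), Dnajb1 (17.1), Hspa1a (12.6) and Hsph1 (4.51). The DMSO range of Cryab overlapped those of Hsp90ab1 and Hspb6, and the ranges of Hspb6 and Hspb1 and of Hspa1b and Dnajb1 overlapped, so the order within these pairs is not set. Hspa1a was below Dnajb1 in every DMSO mouse, with levels per kilobase of 11.6 to 13.7 beside 14.8 to 19.8. The inducible HSP70 genes were thus among the lowest per kilobase and the constitutive Hsp90ab1 among the highest. Reads that align to more than 1 place were not counted, which can lower the values of genes with copies.

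Several of these genes have processed copies elsewhere in the genome, and the copies were read beside them. The annotated copy Gm15459 shares 28.9% of the windows of Hspa8. It was at 20.1, 23.8, 23.7 and 22.3 CPM after DMSO and at 70.9, 44.9 and 58.1 CPM after ABT-263 (log2 fold change 1.37, SE 0.16, edgeR adjusted p = 0.00602), and so rose while Hspa8 was not called. Gm12346, which shares 39.6% of the windows of Hsp90aa1, was at 42.0, 46.0, 50.9 and 49.9 CPM after DMSO and at 33.4, 25.1 and 17.7 CPM after ABT-263 (log2 fold change -0.90, SE 0.21, edgeR adjusted p = 0.0216). It fell as Hsp90aa1 did. Hsp25-ps1, which shares 42.7% of the windows of Hspb1, was at 195.9, 187.7, 191.1 and 201.3 CPM after DMSO and at 153.2, 164.0 and 117.5 CPM after ABT-263 (log2 fold change -0.42, SE 0.15, edgeR adjusted p = 0.0682). Counts of a copy and its gene may hold reads of each other. Summed with their copies, the log2 fold change was 0.05 for Hspa8 (SE 0.17, edgeR adjusted p = 0.843), -0.99 for Hsp90aa1 (SE 0.23, edgeR adjusted p = 0.0217) and -0.53 for Hspb1 (SE 0.15, edgeR adjusted p = 0.0406). These sums were chosen after seeing the data, and kept the calls of Hsp90aa1 and Hspb1.

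The wider chaperone system was read from 7 lists of 87 genes, 85 of them tested: 7 rose (8.24%), 16 fell (18.8%) and 62 were not called, with a median log2 fold change of -0.09 beside 0.0022 over all genes. The shares of all genes called were 12.4% and 11.7%. Of the heat shock factors, Hsf1, the master regulator, was at 24.4, 33.8, 24.7 and 30.7 CPM after DMSO and at 27.5, 25.7 and 27.2 CPM after ABT-263, with overlapping groups (log2 fold change -0.09, SE 0.15, edgeR adjusted p = 0.701). Hsf4, a relative best known in the lens, fell (log2 fold change -0.68, SE 0.16, edgeR adjusted p = 0.0223), with a DMSO mean of 15.2 ± 1.95 CPM (SD, n = 4) and an ABT-263 mean of 9.48 ± 0.568 CPM (SD, n = 3). Of 8 other HSP70 and HSP110 genes edgeR called none, at log2 fold changes of -0.30 to 0.65. DESeq2 called Hspa12a and Hspa12b higher (adjusted p of 0.0406 and 0.0402), and edgeR called Hspa12b higher without ABT-263 mouse 477 (adjusted p = 0.0376); both were named after their values were seen.

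J-domain genes encode HSP40 partners of HSP70, some of which bring it clients. Of 18 others, in a list named cytosolic though not all are, 2 rose (11.1%) and 2 fell (11.1%). These were close to the shares of all genes (12.4% and 11.7%). Dnajc13, of endosome membranes, rose by 1.01 on the log2 scale (SE 0.15, edgeR adjusted p = 0.00707). Its means were 17.6 ± 1.16 CPM after DMSO and 35.5 ± 5.95 CPM after ABT-263. Dnaja2 rose by 0.50 (SE 0.14, edgeR adjusted p = 0.0392). Dnajc7, which binds both HSP70 and HSP90, fell by 0.64 on the log2 scale (SE 0.14, edgeR adjusted p = 0.0186) and Dnajb2 fell by 0.51 (SE 0.12, edgeR adjusted p = 0.0206).

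Of 26 co-chaperones of HSP70 and HSP90, the longest list, 3 rose (11.5%) and 8 fell (30.8%) with all mice, and the median log2 fold change was -0.14. The shares of all genes were 12.4% and 11.7%. The 8 lower calls became 0 without ABT-263 mouse 478, 1 without DMSO mouse 482 or 483, 2 without ABT-263 mouse 476, 5 without DMSO mouse 481 or ABT-263 mouse 477, and 3 with no filter on low counts. The 3 higher calls became 0 without ABT-263 mouse 478, and 1 without DMSO mouse 482, DMSO mouse 483 or ABT-263 mouse 476 or with length and GC trends removed. The 3 that rose were the HSP70 partners Bag2 (1.10 on the log2 scale), Bag5 (0.49) and St13 (0.57), at edgeR adjusted p of 0.0139, 0.0303 and 0.0325. Stub1, the ubiquitin ligase CHIP that marks chaperone clients for the proteasome, fell by 0.77 on the log2 scale (SE 0.18, edgeR adjusted p = 0.0232), with means of 315.3 ± 34.6 CPM after DMSO (SD, n = 4) and 185.1 ± 41.3 CPM after ABT-263 (SD, n = 3). Ptges3, the HSP90 partner p23, and Tomm34, which binds HSP70 and HSP90, both fell by 0.58 on the log2 scale (edgeR adjusted p of 0.0177 and 0.0159). Fkbp4, Chordc1, Hspbp1, Sgta and Bag3 also fell.

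Of 6 other small heat shock genes tested, 2 fell (33.3%, beside 11.7% of all genes) and none rose, with a median log2 fold change of -0.77. With 1 mouse left out, 0 to 3 of the 6 were called lower. The median includes 4 genes that were not called. Of these, Cryaa, named after its values were seen, was near the floor, at 0.327 to 0.657 CPM after DMSO and 0.151 to 0.215 CPM after ABT-263. Hspb3, found mainly in muscle, was at 17.1, 28.9, 41.3 and 27.8 CPM after DMSO and at 12.2, 14 and 11.9 CPM after ABT-263 (log2 fold change -1.18, SE 0.27, edgeR adjusted p = 0.0210). Hspb8, the partner of Bag3 in the removal of damaged muscle proteins, was at 291.2, 514.1, 442.3 and 468.1 CPM after DMSO and at 204.3, 213.8 and 278.4 CPM after ABT-263 (log2 fold change -0.89, SE 0.23, edgeR adjusted p = 0.0282). Each was lower in every ABT-263 mouse, as the summed skeletal muscle markers were by a narrow gap. Hspb7, of heart and skeletal muscle, was not: it was at 288.6, 723.8, 1452.3 and 1111.4 CPM after DMSO and at 1038.3, 606.8 and 1075.2 CPM after ABT-263, with overlapping groups (log2 fold change 0.02, SE 0.49, edgeR adjusted p = 0.980). It was added after its values were seen, and the part of muscle in these values was not tested.

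In mitochondria 1 of 8 chaperone genes was called: Grpel1, the exchange factor of mitochondrial HSP70, rose by 0.73 on the log2 scale (SE 0.12, edgeR adjusted p = 0.00776), with means of 48.5 ± 3.50 CPM after DMSO (SD, n = 4) and 80.7 ± 6.06 CPM after ABT-263 (SD, n = 3). The TRiC chaperonin folds actin and tubulin, and prefoldin hands it those clients. Of 15 genes of these complexes, 1 rose (6.67%) and 3 fell (20%), beside 12.4% and 11.7% of all genes. The prefoldin genes Pfdn5 and Pfdn2 fell by 0.85 and 0.77 on the log2 scale (edgeR adjusted p of 0.00768 and 0.0131), Cct8 fell by 0.55 (edgeR adjusted p = 0.0497) and Cct2 rose by 0.52 (edgeR adjusted p = 0.0298). With 1 mouse left out, the genes that rose over the 7 lists numbered 2 to 9 and those that fell 3 to 18, both lowest without ABT-263 mouse 478. Fewer than 5 rose and fewer than 5 fell without DMSO mouse 482 (3 and 4), DMSO mouse 483 (3 and 4) or ABT-263 mouse 476 (3 and 4). Of the genes named here, Dnajc13, Grpel1, Pfdn2 and Pfdn5 stayed called whichever mouse was left out.

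**Figure D4:**
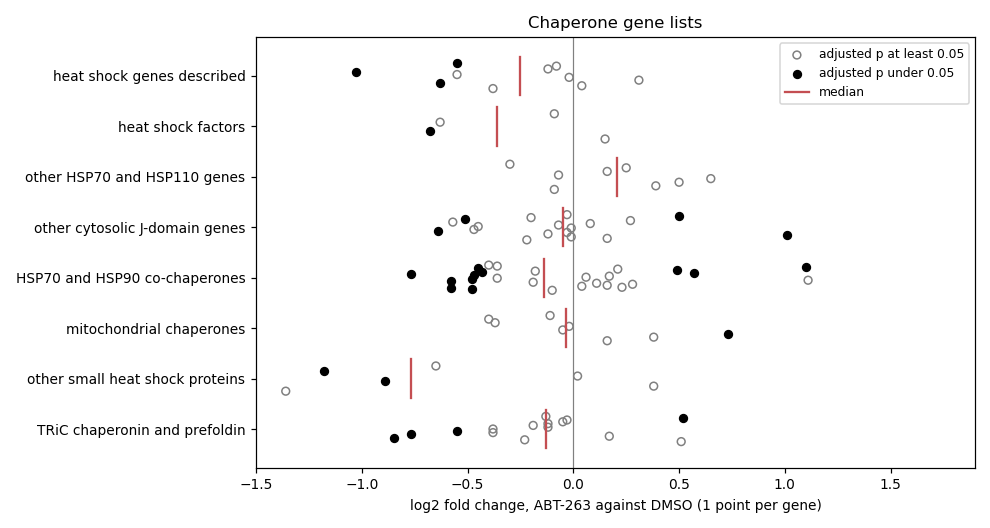
Log2 fold change, ABT-263 against DMSO (x axis), of each tested gene (1 point per gene, shifted vertically only to part the points) in the 10 heat shock genes and 7 chaperone lists (rows). Filled points have an edgeR adjusted p under 0.05 and red lines are list medians. With all mice the co-chaperones hold 3 filled points above 0 and 8 below, all of which are lost without ABT-263 mouse 478.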

How the data were processed

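The authors aligned reads with STAR 2.7.9a to mm10, and the deposited counts are uniquely aligned, properly paired reads per Ensembl gene on the annotated strand (featureCounts, Subread 1.6.2), without mitochondrial genes, normalization or filter. The authors also deposited log2-like values from the variance-stabilizing transformation of DESeq2 1.23.10, used here only as an alternative. RNA was extracted with a TRIzol-based kit per the labels and with an RNeasy kit per the study's methods; which was used for these libraries is not settled.

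Symbols and positions came from GENCODE M21 on GRCm38 (55190 of 55450 identifiers matched). In R 4.3.3 the counts were tested with edgeR 4.0.16 (TMM, filterByExpr, robust quasi-likelihood, two-sided, no covariate), with Benjamini-Hochberg adjustment over 17959 genes and a threshold of 0.05. Each mouse is 1 replicate, so the spread is between animals. The alternatives were DESeq2 1.42.0 (the test of the study), limma 3.58.1 on the variance-stabilized values, other scaling and filters, protein-coding genes only, length and GC trends removed (mgcv 1.9.3), thinning to 20344364 counts, the HSP70 pair or processed copies summed, and each mouse left out. The edgeR fit was run on simulated data as a check of the code, with far fewer changed genes than were called here.

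The genes and lists were chosen with earlier results of these data known. Beside the 10 genes, up to 3 genes per list and direction with the smallest p were named, and Hsf1 always. CPM is relative to the TMM-scaled library total.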

Additional observations from a re-analysis of the deposited data

Results flagged for a closer look

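In the 4 DMSO mice, 24 measures (the heat shock genes, the sums and ratios over them and the summed cell markers) were searched for a single mouse that stood apart, which chance gives in about 1 of 20. The gap of the most distant mouse, divided by the range of the group, passed Dixon's 95% critical value in 2 of the 24, and in none of the 10 heat shock genes. The summed adipocyte markers were at 728.8, 574.4, 601.4 and 1499.2 CPM in DMSO mice 480 to 483, with a ratio of 0.833 for mouse 483. The summed hair follicle markers were at 66.8, 2262.4, 68.1 and 68.2 CPM, with a ratio of 0.999 for mouse 481, and at 11.2, 32.9 and 445.4 CPM in the ABT-263 mice.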

How the results depend on the processing

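No heat shock gene was called higher under any of the alternatives. The number called lower was 4 with DESeq2's Wald test and with length and GC trends removed, 2 with the HSP70 pair summed, 3 under the other alternatives that used all mice, and 0 to 3 with 1 mouse left out. Over all genes, leaving out 1 mouse gave 850 to 2286 higher and 771 to 2104 lower calls, and for the chaperone lists 2 to 9 and 3 to 18. Chaperone genes higher numbered 4 with length and GC trends removed and chaperone genes lower numbered 9 with no filter, and the cause was not tested. The pair of promoter units, a looser motif that the 3 units include, was in 5 genes where the 3 units were in none. Directions turned for genes that were not called: Hspa8 was at 0.05 with copies summed, Hsph1 at 0.00904 with no filter, and Hspb6 at -0.01 with upper quartile scaling and -0.04 with length and GC trends removed. With 1 mouse left out the log2 fold change was -0.24 to 0.10 for Hspa1b, -0.14 to 0.14 for Hsph1, -0.22 to 0.28 for Hspb6 and -0.15 to 0.00366 for Hsf1, and the difference in log2 ratio of the HSP70 pair to the small genes was -0.67 to 0.23. No paired analysis was possible because the 2 groups share no mouse number. Each heat shock gene had 587 or more counts in every library, and thinning all libraries to the smallest left 3 called lower.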

Other observations

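The genes whose log2 CPM followed the summed HSP70 pair most closely over the 7 libraries, among 15588 genes with a mean of at least 1 CPM, were Syt9 (Pearson r = 0.980), Dusp22 (0.979), Rnf227 (0.977), Ttl (0.970) and Arl8b (0.970). For Cryab, among 15589 genes, they were AC157910.6 (Pearson r = 0.981), Tmem230 (0.978), Ankrd2 (0.973), Enkur (0.973) and Mpv17 (0.969). These are the highest of many correlations over few libraries, which differ in treatment and in depth, and are given as a description without a test. None of these 10 genes was called by edgeR (adjusted p of 0.20 to 0.98).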
